A study of Mus musculus with 91 samples.

Results

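The 39 bone marrow stromal cells sorted as VCAM1+CD61+, out of 91 single cells in the series, were divided into 21 large and 18 small cells, which were selected on their measured forward scatter area. This channel records the light a cell scatters forward in the sorter, which grows with cell size, in arbitrary intensity units. The cut lay between the small cells at 141774, 142942 and 145938 and the large cells at 146340, 146644 and 148265. Plate 1 held 7 large and 10 small cells, and plate 2 held 14 large and 8 small cells. The cut was chosen with earlier results of these cells known, so forward scatter is a description of the classes and supports nothing below.

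All cells came from C57BL/6 mice. Bones were crushed, the released cells were stained, and single cells lacking CD45, Ter119, CD41 and CD71 (surface proteins of blood cells) and positive for a DNA dye and VCAM1 were index-sorted, so that each cell's fluorescence was stored with its well. One gate took CD61+ cells, another CD61- cells and another VCAM1+ cells with no CD61 gate in the label. Every cell became 1 Smart-seq2 library, a full-length cDNA method without molecular identifiers. The labels name no animal, so the CD61+ gate counts as 1 sample: values below compare the cells themselves and no test was possible. Intervals for ratios of counts treat reads as independent, and intervals for shares treat cells as independent. Reads of amplified cDNA are not independent molecules, so the intervals for ratios understate even the counting error. No interval covers differences between animals.

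Bone marrow stroma holds CXCL12-abundant reticular (CAR) cells, which carry the leptin receptor, make the stem cell niche factors Cxcl12 and Kitl, and express genes of the fat cell lineage such as Adipoq and Lpl. It also holds bone-forming osteolineage cells, which secrete collagen I and mineral-binding proteins such as osteopontin (Spp1), bone sialoprotein (Ibsp) and osteocalcin (Bglap). CD61 is integrin beta 3, one chain of receptors for matrix proteins such as osteopontin and vitronectin. Secretory cells carry an enlarged rough endoplasmic reticulum, and both a large cell body and a second cell in the laser path can raise forward scatter.

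Over the 39 cells forward scatter area had a median of 146644, with extremes of 110723 and 218726. In the CD61- gate only 2 of 40 cells reached the cut, where the median was 111650, and in the VCAM1+ gate 3 of 9 did. The 39 libraries held between 507713 and 5301885 total counts (median 1887613), and no 2 of these libraries held identical values. Most markers of blood cells had few counts: of the 9 neutrophil genes none had enough to be compared, of the 12 macrophage genes 3 had, and Ptprc, which encodes CD45, summed to 0.16 CPM, the count scaled to a fixed library total, in large and 0.06 CPM in small cells. Of the haemoglobin genes, Hbb-bs had counts in 4 large and 2 small cells, at 273 and 46.9 CPM, and the mean of the erythroid list was at least 3 on the log2(CPM + 1) scale in 2 large and 2 small cells. A further 3 cells stood apart from the other 36: cluster 6 joined 1 large cell of plate 2 at a forward scatter of 211100, whose fibroblast genes averaged 10.55 on that scale, and 2 small cells of plate 1 at 110723 and 124887, whose endothelial genes averaged 8.89 and 8.33.

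Large cells had more genes detected. Genes with at least 1 count ran from 2843 to 7665 with a median of 6145 in large cells, and from 3840 to 6870 with a median of 5517 in small cells. The difference had the same direction in plate 1, with medians of 6044 and 5419.5, and in plate 2, with medians of 6809 and 5517, but the classes overlapped over most of their range. Total counts went the same way, with medians of 1944373 in large and 1616103 in small cells, and the ranges again overlapped. After each cell was thinned to 906404 counts, which left out 1 large and 3 small cells, the medians were 5668.9 and 5282.1 genes, a smaller gap than before thinning. Across the 39 cells the rank correlation of genes detected with forward scatter was 0.36 (Pearson's r 0.19), and 0.43 (r 0.39) without the 2 cells farthest from the median size; it was 0.11 in plate 1 and 0.48 in plate 2. These cells share 2 plates and differ in depth, and depth itself had a rank correlation of 0.26 with size. The median share of counts in the 20 most abundant genes of a cell was 21.97% in large and 16.8% in small cells, and the median mitochondrial share was 1.55% and 1.15%; the mitochondrial order was turned round in plate 2, at 1.54% and 2.11%.

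**Figure D1:**
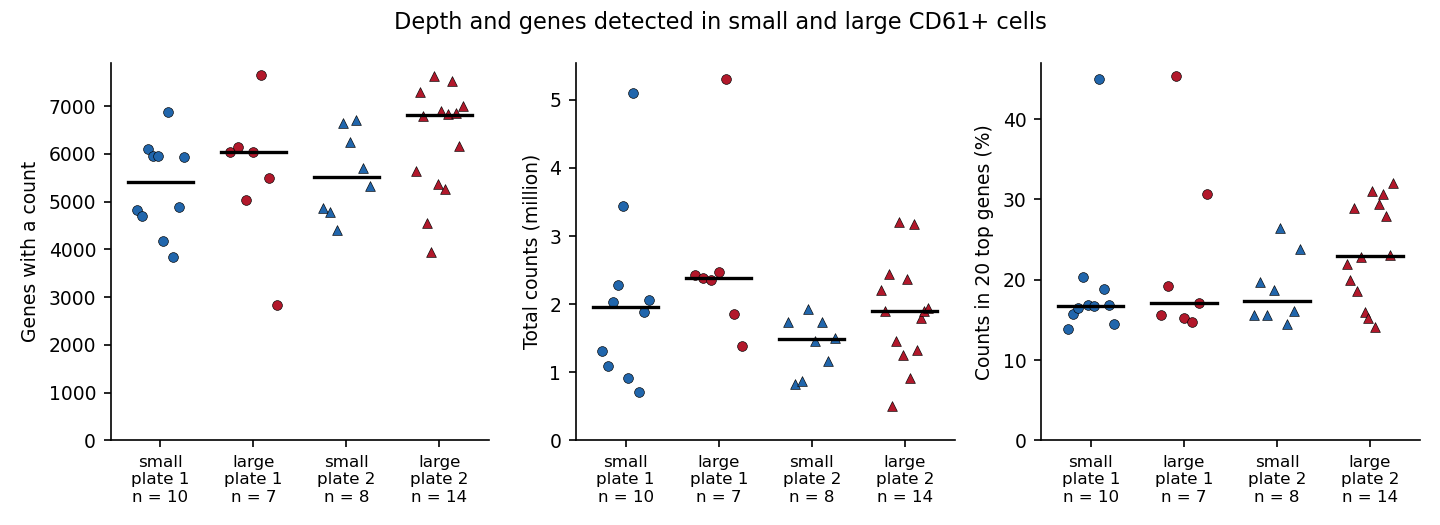
Genes with at least 1 count (left), total counts (middle, axis in units of 1e6) and percent of counts in the 20 most abundant genes (right), 1 point per cell in order of forward scatter within its class, with a line at the median. Large cells (red) have higher medians for genes in both plates, 6044 against 5419.5 and 6809 against 5517, with wide overlap.

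Forward scatter height and width come from the same pulse as the area and followed it by construction, with rank correlations of 0.92 and 0.56 over the 39 cells. Side scatter width also followed size. This is the duration of the light scattered sideways, a measure related to the length of a particle. It had a median of 86915 in large and 80966 in small cells, with medians of 87956 and 81889 in plate 1 and of 85870 and 78293 in plate 2. Its rank correlation with forward scatter area was 0.59 over the 39 cells (r 0.63), 0.57 without the 2 farthest cells, and 0.50 and 0.76 in the plates. Forward scatter width was at or above 93000 in 5 of 21 large and 1 of 18 small cells, a range in which more than 1 particle can pass at once; whether any well held a doublet was not tested. Without these 6 cells the ratio of CD200 medians, 1.37 over all cells, was 0.949. Side scatter area, which reflects internal granularity, had like medians of 44848 and 44530, with large cells lower in plate 1 (44848 and 50940) and higher in plate 2 (45191 and 39636).

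CD200, a membrane glycoprotein stained in the sort, ran from 58 to 7834 with a median of 2706 in large cells and from 95 to 5056 with a median of 1978 in small cells. Both classes held low and high cells, and their ranges overlapped almost fully. The medians were 2706 and 1961 in plate 1 but 2019.5 and 1981 in plate 2. The DNA dye had medians of 69517 in large and 63460 in small cells, and 2 large and 1 small cell reached 100000. CD61 itself, on which the gate was drawn, had medians of 1990 and 1900.5, and VCAM1 had medians of 668 and 743. Over both plates the summed transcripts of CD200, CD61 and VCAM1 had the order of their stain medians, and that of CD51 did not. Cd200 RNA was at 460 CPM in large and 255 CPM in small cells, higher in large cells of both plates (log2 ratio 0.91 and 0.39). Itgb3, which encodes CD61, was at 11.99 and 11 CPM, and Itgav, which encodes its partner CD51, was at 217 and 150 CPM. The CD51 stain had a lower median in large cells over both plates and in plate 1, and a higher one in plate 2. Vcam1 RNA had counts in 18 of 21 large cells with a cell median of 139 CPM, and in all 18 small cells with a median of 606 CPM; the summed level was 334 CPM in large and 910 CPM in small cells, at least 2-fold lower in large cells of both plates.

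**Figure D2:**
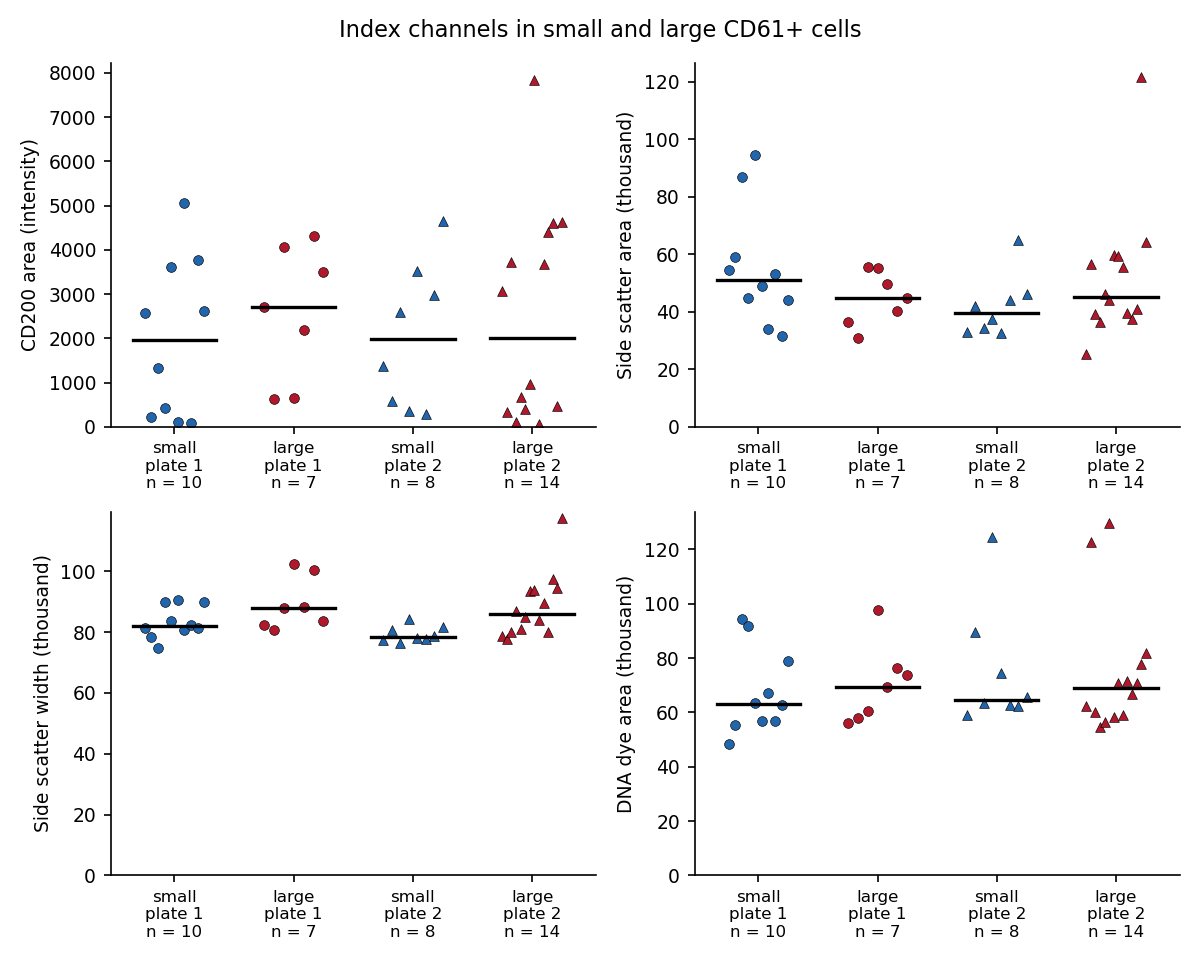
CD200 area, side scatter area, side scatter width and DNA dye area (arbitrary intensity, the last 3 with the axis in units of 1000) in small (blue) and large (red) cells of each plate, 1 point per cell with a line at the median. Side scatter width has the clearest offset, with medians of 87956 against 81889 in plate 1 and 85870 against 78293 in plate 2, while CD200 spans low and high values in every class.

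The classes differed in which stromal genes their cells expressed. Each cell was given the mean log2(CPM + 1) of 21 CAR cell and niche factor genes, and no cell lay between 4.499 and 6.376. The 22 cells above this gap are called CAR-high here, a division chosen after the values were seen. They were 9 of 21 large cells (42.9%, exact 95% interval 21.8 to 66.0) and 13 of 18 small cells (72.2%, 46.5 to 90.3). The order was the same in plate 1, with 4 of 7 and 7 of 10, and in plate 2, with 5 of 14 and 6 of 8, and the intervals overlapped. Forward scatter ran from 113073 to 172411 with a median of 140744 in CAR-high cells, and from 110723 to 218726 with a median of 157613 in the other 17 cells. Of the 8 largest cells, at 165474 or more, 7 were not CAR-high, while of the 8 smallest, at 124887 or less, 2 were not.

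Clustering of 88 cells by their RNA, which did not use the scatter channels, placed more large cells in cluster 2 than in any other cluster. It was led by Spp1, Bglap2, Timp1, Postn and Col1a1, and held 10 of 21 large cells (47.6%, 25.7 to 70.2) and 3 of 18 small cells (16.7%, 3.58 to 41.4). Plate 1 had 2 of 7 and 1 of 10, and plate 2 had 8 of 14 and 2 of 8. None of the 8 smallest cells was in cluster 2, against 5 of the 8 largest. Cluster 5, led by Alpl, Comp, Bglap2 and Wif1, had the opposite makeup, with 1 of 21 large and 5 of 18 small cells, and it had counts for 20 of the 21 CAR genes. Both clusters had osteolineage genes among their leading markers. Cluster 5, however, had a mean of 6.858 for the CAR list and 5.529 for the osteolineage list over its 11 cells of all gates. All 6 of its CD61+ cells were CAR-high. Clusters 2 and 5 together, called osteolineage-like here for their leading markers only, held 11 of 21 large (52.4%) and 8 of 18 small cells (44.4%). These were mostly cluster 2 in the large class and mostly cluster 5 in the small class. The plates went opposite ways, with 3 of 7 and 3 of 10 in plate 1 and 8 of 14 and 5 of 8 in plate 2. By the plainer measure of an osteolineage list mean above the CAR list mean, the counts were 11 of 21 large and 4 of 18 small cells. Clusters 1 and 4, whose leading genes mixed CAR and adipogenic markers, held 6 large and 5 small cells, and cluster 3, left unnamed, held 3 of each. The genes that lead these clusters are the same RNA that the gene comparison below reads, so cluster shares and gene levels are not separate evidence.

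**Figure D3:**
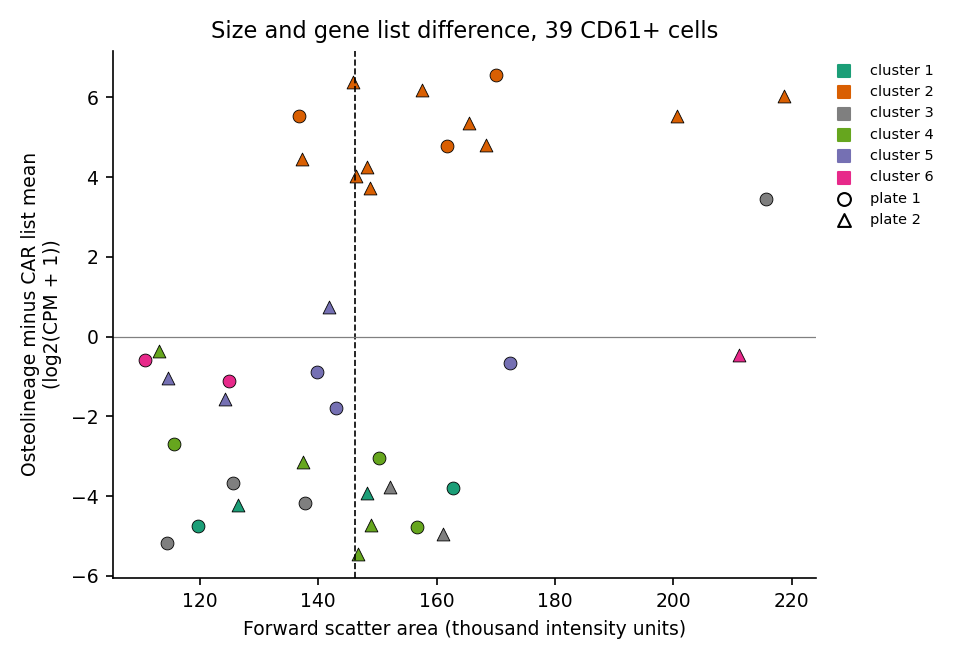
Forward scatter area (x, in units of 1000) against the osteolineage list mean minus the CAR list mean (y, log2(CPM + 1) scale) for 39 cells, coloured by cluster, with the plate as shape and the dashed line at the size cut. The 13 cells of cluster 2 lie at 136728 or above, and no cell of the 8 smallest is among them.

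For gene levels, the counts of the cells of a class were summed and put on the CPM scale, and genes with at least 10 counts in all and counts in at least 5 cells were compared. Of 12199 genes, 858 (7.03%) were at least 2-fold higher in large cells of both plates and 1090 (8.94%) at least 2-fold lower. By any amount, 21.7% were higher and 27.7% lower in both plates. The list counts below are to be read against these shares. The median log2 ratio over the 12199 genes was -0.12. Scaling the sums with edgeR's TMM factors moved that median to 0.01 and each list's median by the same step, so the list medians below are to be read against -0.12.

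The osteolineage list had a median log2 ratio of 0.49 over its 23 genes, all of which were compared. The plates differed, at 1.28 in plate 1 and -0.21 in plate 2, and 7 genes (30.4%) were higher in large cells of both plates and 2 (8.7%) lower, against 21.7% and 27.7% of all genes compared. Col1a1, the alpha 1 chain of collagen I (chromosome 11, 94936224 to 94953042, plus strand, mm10), ran from 0 to 14135 CPM with a median of 818 in large cells and from 0 to 5077 CPM with a median of 124 in small cells. The ranges overlapped, with counts in 19 of 21 large and 14 of 18 small cells. Its summed level was 3358 and 766 CPM, 4.38-fold higher in large cells (counting interval 4.32 to 4.44), with log2 ratios of 2.39 and 1.72 in the plates. One large cell gave 30.3% of all Col1a1 counts. Col1a2, the partner chain, was at 2589 and 970 CPM (log2 ratios 1.75 and 0.96), and Sparc, a collagen-binding matrix protein, at 11461 and 7366 CPM (0.68 and 0.48). Col1a1 and the bone transcription factor gene Dlx3 (26.6 and 4.08 CPM) were the 2 of 23 genes of the list past 2-fold in both plates, a share near the 7.03% of all genes.

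Other bone genes did not share that order. Spp1 ran from 0 to 330812 CPM in large cells and from 0 to 315750 CPM in small cells, with medians of 7647 and 2083. Its log2 ratio was -0.52 in plate 1 and 1.78 in plate 2, and a single small cell gave 31.2% of all its counts. Mmp13, a collagenase, was lower in large cells of plate 1 (-2.48) and higher in plate 2 (0.48). Bglap, with counts in 12 of 21 large and 6 of 18 small cells, had log2 ratios of 2.45 and -1.07, and Alpl, the bone alkaline phosphatase, had 1.68 and -0.97. Ibsp was higher in large cells of both plates, at 9175 and 4834 CPM (0.09 and 1.19). Collagen I, Sparc and Ibsp thus had 1 direction in both plates, and Spp1, Mmp13, Bglap and Alpl did not.

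The CAR list had a median log2 ratio of -0.31 over the 20 of its 21 genes that were compared, at 0.15 in plate 1 and -0.79 in plate 2, with 2 genes higher in both plates and 8 lower. Cxcl12, the chemokine that names these cells, ran from 0 to 30804 CPM with a median of 385 in large cells and from 0 to 28461 CPM with a median of 15755 in small cells. The cells split into low and high groups rather than shifting as a whole, and the summed levels were 9278 and 11081 CPM with opposite signs in the plates (log2 ratio 0.46 and -1.08). Kitl, the stem cell factor gene, was lower in large cells of both plates, at 569 and 766 CPM in all (-0.56 and -0.72). Lepr, the leptin receptor gene, was at 326 and 280 CPM. In the list Vcam1 alone passed 2-fold, lower in large cells, as did 8.94% of all genes.

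Adipogenic genes were lower in large cells, with a median log2 ratio of -0.83 over 12 compared genes of 15 listed, at -0.69 and -0.55 in the plates; 6 were lower in both plates and 2 higher. Apoe, a lipid carrier, was at 1733 and 2884 CPM (log2 ratios -0.63 and -0.70), and Lpl, the lipoprotein lipase, at 708 and 1321 CPM (-0.49 and -1.38). Adipoq, which encodes adiponectin, had opposite signs (-0.75 and 0.36). Pparg, the regulator of fat cell fate, was past 2-fold at 37.4 and 257 CPM, with counts in 6 large and 7 small cells, and most of it came from 1 small cell, which reached 1609 CPM. The rank correlation of the adipogenic mean with forward scatter was -0.45 over 39 cells (r -0.47), -0.40 without the 2 farthest, and -0.53 and -0.39 in the plates.

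Within the 22 CAR-high cells the size classes were compared again, 9 large against 13 small. The clusters behind them differed: 4 of the 9 large cells were in cluster 4 and 1 in cluster 5, while 3 of the 13 small cells were in cluster 4 and 5 in cluster 5. Of 9584 genes compared there, 700 (7.3%) were at least 2-fold higher in large cells of both plates and 928 (9.68%) at least 2-fold lower, and 21.4% were higher and 26% lower in both plates by any amount. The CAR list changed sign, to a median of 0.28 (0.13 and 0.36 in the plates), with 10 of 20 genes higher in both plates and 2 lower. Without the cells of cluster 5, 8 large against 8 small, it was 0.11 (0.15 and 0.17), with 7 higher and 2 lower and a median of 0.005 over all genes. Cxcl12 then ran from 12046 to 30804 CPM with a median of 21237 in large cells and from 10388 to 28461 CPM with a median of 16633 in small cells. Lepr had medians of 684 and 368 CPM and a log2 ratio of 0.63 and 0.82 in the plates. The adipogenic median was 0.10, with opposite signs in the plates, and the osteolineage median was -0.30, at 0.31 and -2.37 in the plates. Col1a1 had cell medians of 69.3 and 102 CPM there, and Spp1 had counts in 5 of 9 large cells and 12 of 13 small cells, with medians of 0.41 and 1423 CPM. The higher Col1a1 of the large class was thus measured with more cells outside the CAR-high group in it: among the 17 other cells, 12 large cells had a median of 2513 CPM and 5 small cells a median of 1529 CPM. Those 5 small cells included the 2 of cluster 6 with endothelial genes. Erythroid genes differed with size in the CAR-high comparison: 4 of the 5 compared, the haemoglobin genes Hbb-bs, Hba-a2, Hba-a1 and Hbb-bt, were past 2-fold higher in large cells, with a list median of 2.34 (7.15 and 1.36 in the plates). They had counts in 3 or 4 of the 9 large and 2 or 4 of the 13 small cells. Their part in the other differences was not tested.

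CD200 protein and genes detected were read within the same groups. The other cells were 12 large and 5 small, and the 3 cells of cluster 6 were among them, 1 large and 2 small. Each small-class median over both plates given below for the other cells is the value of 1 of these 2 small cells with endothelial genes. CD200 medians were 630 in large and 593 in small CAR-high cells, but the plates went opposite ways, at 1681.5 and 432 in plate 1 and 339 and 982.5 in plate 2. In the other cells they were 3700.5 and 3612, so CD200 was higher outside the CAR-high group in both size classes. The median number of genes with a count was 6044 in large and 4898 in small CAR-high cells, with the same order in both plates. In the other cells it was 6809 and 5968, reversed in plate 1 (5028 and 5968, 3 cells each, 2 of the small ones from cluster 6). Thinned to 1 depth, the CAR-high medians were 5408 and 5328 genes, while those of the other cells were 6144.2 and 5099.75. Side scatter width kept its order, with medians of 84826 and 80504 in CAR-high and 88099 and 81163 in the other cells. Within cluster 2 alone, 10 large and 3 small cells, its medians were 88099 and 80768, and those of CD200 were 3890 and 4643.

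**Figure D4:**
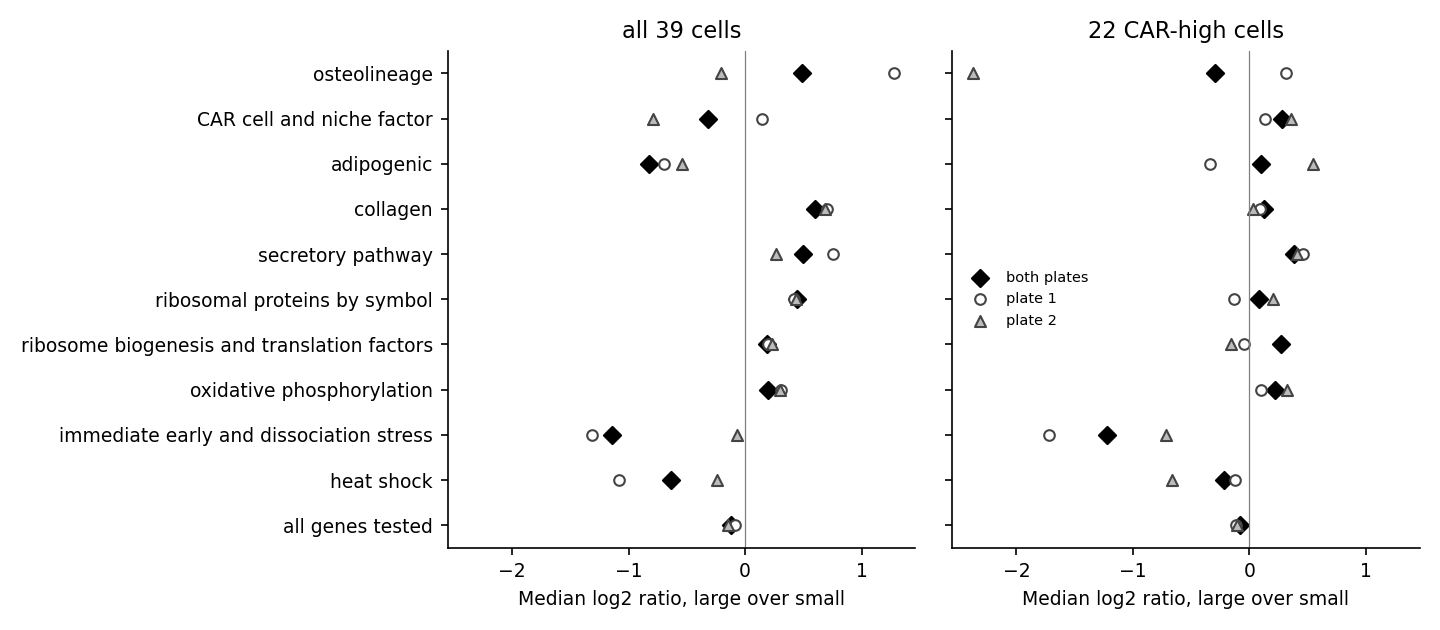
Median log2 ratio of large over small cells for 10 gene lists and all genes, from summed CPM, over all 39 cells (left) and 22 CAR-high cells (right); diamonds are both plates together, circles plate 1 and triangles plate 2. The secretory pathway stays above 0 in both panels (0.50 and 0.38), and the CAR list changes side, from -0.31 to 0.28.

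Genes of the secretory pathway were higher in large cells. Over all 45 genes the median log2 ratio was 0.50, at 0.75 and 0.27 in the plates, with 23 genes (51.1%) higher in both plates and 6 (13.3%) lower, against 21.7% and 27.7% of all genes. The difference was mostly under 2-fold: 3 of 45 genes passed it in both plates, a share near the 7.03% of all genes. They were Kdelr3, a receptor that returns proteins to the endoplasmic reticulum, at 215 and 86.8 CPM, and the COPII coat genes Sec23a (log2 ratio 2.44) and Sec24d (1.81). Sec61b, a subunit of the channel through which proteins enter the endoplasmic reticulum, was at 1094 and 442 CPM (2.10 and 0.34), and Spcs1, of the signal peptidase, at 764 and 392 CPM (1.27 and 0.63). Inside the CAR-high cells the list's median was 0.38 (0.46 and 0.41), with 19 higher and 6 lower in both plates, and 0.52 without cluster 5. There Ssr3, of the translocon-associated complex, had a median of 223 CPM in large cells (7.40 to 456) and 61.1 CPM in small cells (0 to 226), and the ranges overlapped. Across the 39 cells the secretory mean had a rank correlation with forward scatter of 0.43 (r 0.40). It was 0.48 without the 2 farthest cells, and 0.12 and 0.60 in the plates. Genes detected had a rank correlation of 0.36 with forward scatter, and their part in the secretory value was not tested.

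Chaperones of the same compartment did not follow: 26 genes had a median of 0.02, with 8 higher and 7 lower in both plates. The 19 compared collagen genes had a median of 0.60 (0.71 and 0.68), which was 0.13 within CAR-high cells. Plod2, a lysyl hydroxylase for collagen crosslinks, was past 2-fold at 96.7 and 38.2 CPM, and Serpinh1, the collagen chaperone, had a log2 ratio of 0.76 (0.95 and 0.46 in the plates).

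Genes of the ribosome differed little, mostly in 1 direction. All 88 ribosomal protein genes were compared, with a median log2 ratio of 0.44 (0.42 and 0.44), 63 higher in large cells of both plates and 5 lower. Within CAR-high cells the median was 0.08, with 24 of 85 (28.2%) higher and 16 (18.8%) lower. Among 28 genes of ribosome biogenesis and translation the median was 0.19, and 4 passed 2-fold higher, against 7.03% of all genes. Among these 4 were Pabpc1, the poly(A) binding protein, with a median of 548 CPM in large (8.81 to 1883) and 115 CPM in small cells (0 to 765), and Nop58, a nucleolar protein, at 205 and 87.4 CPM. The 40 compared genes of oxidative phosphorylation had a median of 0.19, with 19 higher and 7 lower in both plates. Of 18 compared genes of cholesterol and fatty acid synthesis 5 were past 2-fold higher and 1 lower, against 7.03% and 8.94% of all genes. Counts of these genes were low.

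Immediate early genes, which cells switch on within minutes of a stimulus and also during dissociation, had lower summed levels in large cells. The median log2 ratio of 22 genes was -1.14, at -1.31 in plate 1 and -0.07 in plate 2, with 9 lower in both plates and 1 higher, and none was past 2-fold in both plates. Fos ran from 0 to 7772 CPM with a median of 582 in large cells and from 0 to 19157 CPM with a median of 933 in small cells. The small class held the highest cells but also cells at 0, with counts in 17 of 21 large and 13 of 18 small cells. Summed Fos was at 1728 and 4978 CPM (log2 ratio -1.90 and -0.55), and Jun, its partner in the AP-1 factor, at 389 and 1682 CPM (-2.18 and -0.73), although the median cell had more Jun in the large class, 206 against 27.8 CPM. Within CAR-high cells the list's median was -1.22 (-1.72 and -0.72), with 7 of 17 genes past 2-fold lower and 1 higher, against 9.68% and 7.3% of all genes there. Without cluster 5 the plates there went opposite ways, at -1.93 and 1.40. In CAR-high cells Socs3, a cytokine signalling inhibitor, had a median of 181 CPM in large cells (0 to 285) and 348 CPM in small cells (0 to 3367). The result depended on how cells were combined. From the mean CPM per cell the list's median was -0.89 (-1.27 and -0.38), with 11 genes lower in both plates and 1 higher, but the mean log2(CPM + 1) of the list, which gives less weight to the highest cells, had a rank correlation with forward scatter of 0.06 over 39 cells and 0.17 over the CAR-high cells. The sorter's time channel had medians of 35520 in large and 46142 in small cells, with overlapping ranges and a rank correlation with forward scatter of -0.08, and the list mean had a rank correlation of -0.03 with it.

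Heat shock genes had a median of -0.63 over 12 genes, with 4 past 2-fold lower in large cells and 1 higher, against 8.94% and 7.03% of all genes. Hspb1, a small heat shock protein (chromosome 5, 135887919 to 135889563, plus strand), had counts in 1 of 21 large cells, at 160 CPM, and in 9 of 18 small cells, up to 1595 CPM. Summed, it was at 8.52 and 465 CPM, and it was 1 of the genes chosen for its gap in these cells. Within CAR-high cells the list's median was -0.22, with 3 of 11 genes past 2-fold higher and 2 lower, against 7.3% and 9.68% of all genes there. The list mean had a rank correlation of 0.12 with forward scatter over 39 cells. Dnaja1, a co-chaperone, had medians of 185 and 568.1 CPM with overlapping ranges, and its sums of 308 and 713 CPM gave log2 ratios of -1.14 and -1.40. Dnajb1 was at 38.7 and 130 CPM and Hsph1 at 2.71 and 33.9 CPM. The mitochondrial chaperonin gene Hspe1 went the other way, at 238 and 40.9 CPM, with counts in 18 of 21 large and 9 of 18 small cells. Hsp90aa1 was at 580 and 3611 CPM, but 1 small cell gave 37.6% of all its counts and the log2 ratio in plate 2 was -0.22.

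Cell cycle genes were sparse: 19 of 36 listed were compared, with 6 past 2-fold lower in large cells and 2 higher, against 8.94% and 7.03% of all genes. Cdk1, the mitotic kinase, had counts in 1 large and 4 small cells, and 1 small cell gave 96.6% of them. The cells with counts for these genes were few in both classes, so the list's median of -1.40 rests on single cells.

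Several markers of other cell types came mainly from the cells that stood apart. Of 17 fibroblast genes, 11 were compared, with a median of 1.53. Mfap5, a microfibril protein gene, was at 1130 CPM in large and 0.187 CPM in small cells, and nearly all of it came from 1 large cell. Gsn, which encodes gelsolin and was past 2-fold in both plates (1166 and 175 CPM), had 61.8% of its counts in 1 large cell. Endothelial genes had a median of -7.57 over 5 compared genes of 13, at -7.31 in plate 1, which held both small cluster 6 cells, and 0.45 in plate 2; Plvap, of the endothelial diaphragm, was at 2.20 and 685 CPM, and Emcn had no count in large cells and 290 CPM in 2 small cells. Outside cluster 6, no cell had an endothelial list mean of 3 or more, but 4 large and 2 small cells had a fibroblast mean and 7 large and 5 small cells a chondrocyte mean of at least 3. The Schwann cell list mean was at least 3 in 4 small and 0 large cells outside cluster 6, with medians of 2.83 in small and 1.48 in large cells. Over the 39 cells its rank correlation with forward scatter was -0.46 (-0.305 and -0.581 in the plates). Only 1 of the 6 listed Schwann cell genes had enough counts to be compared. Without cluster 6 the osteolineage median was 0.33 and the CAR median -0.47.

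A fixed ranking named the 14 genes per direction whose gap was widest in both plates and held when any 1 cell was left out. These genes were chosen for their gap in these cells, from 3456 and 3156 candidates, so their direction here is a description. Higher in large cells were Slc39a6, Mapk14, Fam118b, Nol11, Pcca, Pdgfc, Ube2z, Bcar3, Brcc3, Vps36, Gmpr2, Czib, Tomm5 and Nae1. Higher in small cells were Hspb1, Emd, Rbak, Rars2, Ccdc84, Tedc2, Dusp22, Gstt2, Ralgapa1, Ripor1, C2, Pank2, Deptor and Ccdc141.

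Slc39a6, a zinc transporter gene, had counts in 12 of 21 large cells, up to 231 CPM, and in none of 18 small cells. Its sum of 27.6 CPM in large cells was at least 295-fold higher than the level that 3 counts over the whole small class would give. The 12 cells comprised 5 of 9 CAR-high and 7 of 12 other large cells. Mapk14, which encodes the stress kinase p38 alpha (chromosome 17, 28691329 to 28748406, plus strand), had counts in 14 of 21 large cells, up to 119 CPM, and in 1 of 18 small cells. It was at 32.7 and 0.125 CPM. The ratio of 262 is the gap that chose the gene, and its small-class level rests on 1 cell. Both genes were therefore detected in large cells inside and outside the CAR-high group, and large cells at 0 remained for both.

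The others named for large cells had smaller gaps and more overlap. Ube2z, a ubiquitin-conjugating enzyme gene (chromosome 11, 96047432 to 96065388, minus strand), had counts in 18 large and 6 small cells, at 29.0 and 3.18 CPM. Brcc3, a deubiquitinase gene (chromosome X, 75416628 to 75454001, plus strand), had counts in 19 large and 10 small cells, at 42.3 and 3.65 CPM. Tomm5, of the mitochondrial import pore, was at 454 and 82.2 CPM, with a cell median of 229.7 in large and 0 in small cells. Pdgfc, a growth factor gene, had counts in 14 large and 3 small cells, at 32.1 and 0.873 CPM. The other 8 genes summed to between 30.5 and 159 CPM in large cells and between 0.281 and 32.4 CPM in small cells.

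Of the genes named for small cells, Deptor, an inhibitor of the mTOR kinase that drives cell growth (chromosome 15, 55112317 to 55259271, plus strand), had counts in 11 of 21 large and 16 of 18 small cells. Its cell medians were 0.19 and 15.4 CPM with overlapping ranges, and its sums were 13.7 and 92.5 CPM. The complement gene C2 was at 4.28 and 84.5 CPM, and 10 of the 11 small cells with a count were CAR-high. Emd, which encodes the nuclear envelope protein emerin, was at 2.08 and 65.0 CPM, but it had counts in 17 large and 15 small cells with medians of 1.25 and 1.12 CPM, so its gap lay in a few high small cells. The 10 genes not described summed to between 0.179 and 15.2 CPM in large cells and between 23.7 and 98.8 CPM in small cells.

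The CD61- gate, which the ranking had not used, gave a second reading of these genes. Its 40 cells were split at their own median size into 20 upper cells, at 112015 or more, and 20 lower cells, at 111286 or less, a comparison added after the data were seen and at sizes mostly under the CD61+ cut. Of the 14 genes named for large CD61+ cells 7 were higher in the upper CD61- cells, against 47.9% of all 11459 genes compared there, and 6 were higher in both plates. Of the 14 named for small cells 9 were lower in the upper cells, against 52.1% of all genes, and 3 were lower in both plates. The shares of all genes with 1 direction in both plates were not calculated for these cells, so the counts of 6 and 3 have no reference. The upper cells were 8 of plate 1 and 12 of plate 2, and the lower cells 16 and 4. Slc39a6 was at 26.9 CPM in upper and 1.72 CPM in lower cells, with counts in 7 of 40 cells. Mapk14 was reversed, at 9.42 and 31.1 CPM with counts in 17 of 40 cells, and Deptor was at 70.4 and 70.6 CPM. Brcc3, at 56.2 and 7.98 CPM, and Hspb1, at 289 and 985 CPM, kept their direction in the sums of both plates. Their rank correlations with size over the 40 cells were -0.08 and 0.003, and counts were found in 17 upper and 19 lower cells for Brcc3 and in 7 and 8 for Hspb1.

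**Figure D5:**
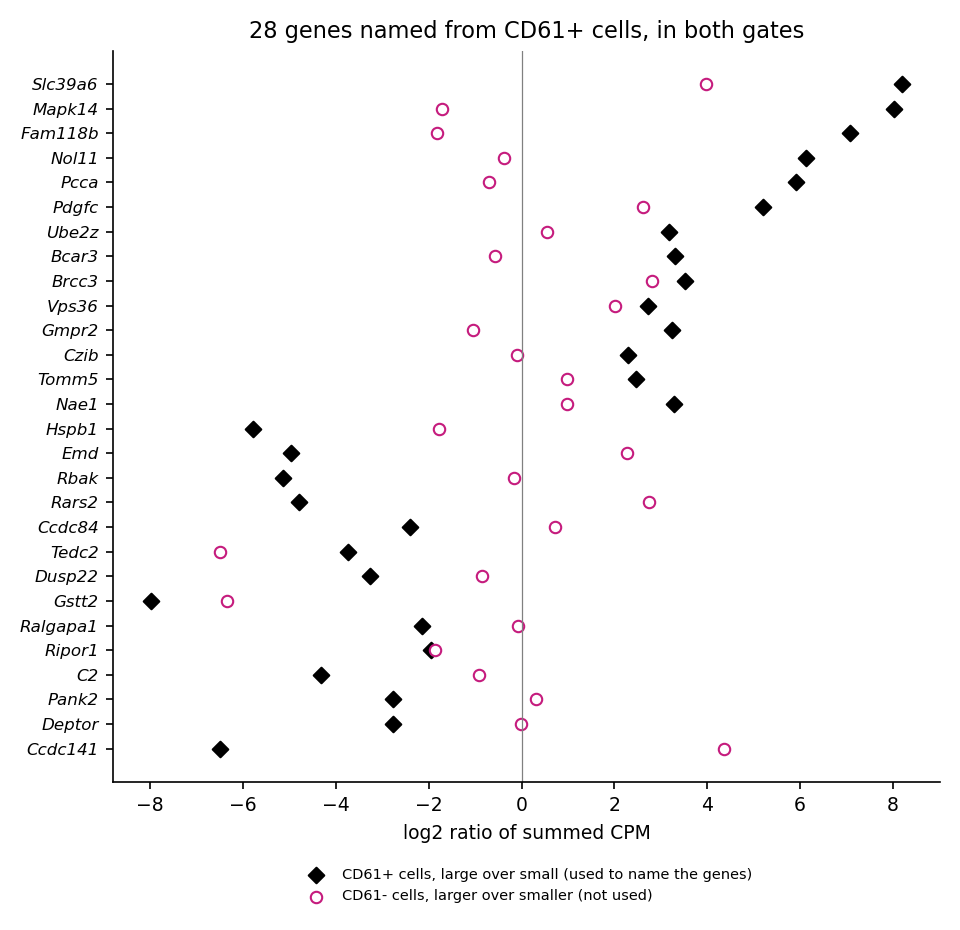
Log2 ratio of summed CPM, large over small, for the 28 genes named from CD61+ cells (black diamonds, the values that chose them) and the same genes in CD61- cells split at their own median size (open circles). The diamonds lie on their own side by construction, and the circles fall on both sides: 7 of 14 and 9 of 14 share the direction.

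Gene lists in the CD61- cells shared some of these directions. Ribosomal proteins had a median of 0.31 (0.29 and 0.32 in the plates), against -0.06 over all genes there. Of these 87 genes 43 were higher in both plates and 6 lower, counts that again have no reference over all genes. The osteolineage median was 0.80 over 16 compared genes, while the CAR median was -0.11, the secretory median -0.04 and the immediate early median 0.22. Per cell, the osteolineage list mean did not follow size there, with a rank correlation of -0.03 (-0.22 and 0.47 in the plates). Its medians were 3.26 in upper and 3.19 in lower cells. It was above the CAR list mean in 3 upper and 0 lower cells, so the summed ratio can rest on few cells. CAR-high cells were 17 of 20 upper and 18 of 20 lower cells there. The DNA dye had a rank correlation with forward scatter of 0.68 over the 40 CD61- cells and 0.18 over the 39 CD61+ cells; within the latter it was -0.02 in CAR-high and 0.61 in the other cells.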

How the data were processed

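The series measured RNA and sorter fluorescence in single mouse cells. The authors deposited estimated counts per gene and cell, all whole numbers in the table, produced with kallisto 0.43.0, R 3.5.1 and the mm10 build, per the submitters' processing notes; for the annotation and for summing transcripts to genes, the method was not given in the sources used here. Per cell, a deposited table lists the total count, how many genes reached 4 counts, and index channels as intensity in arbitrary units; 31 further columns of it were not used. The time channel has no stated unit. The members and gene lists were chosen with earlier results of these data known, including the size cut.

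Gates and plates came from the labels, and 3 cells whose title and gate label disagree were left out. Counts of each class were summed per plate and over both plates and divided by the class total (CPM); genes with at least 10 counts over the 39 cells and counts in at least 5 cells were compared, with a floor of 3 counts where a class had fewer. A gene was past the fold when its log2 ratio was at least 1 in size, with 1 sign, in both plates. Cells were clustered with scanpy 1.11.5 and igraph 0.11.9 on 2000 variable genes, 15 principal components, 10 neighbours and resolution 1, without a doublet caller. Thinned gene numbers are means of 20 draws. The 14 genes named per direction were detected in 50% or more of the higher class (40% or more in each plate) at 20 CPM or more, and were ranked by the smaller of the plates' log2 ratios after leaving out any 1 cell; genes of the sorted proteins and up to 4 of the most abundant genes of each list were also named. Other genes named in the text were chosen after their values were seen. Intervals are 95% Clopper-Pearson for shares and exact Poisson-based for ratios of counts. Python 3.11.15 was used, with edgeR 4.0.16 and DESeq2 1.42.0 only for alternative scaling factors; the calculation was tested on simulated data. Positions are from GENCODE on mm10, matched by symbol for 505 of 506 genes. Alternatives changed the scaling, the filter, the depth, the size cut and the cells included; the settings on CAR-high cells and on clusters 5 and 6 and the CD61- comparison were chosen after seeing the data.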

Additional observations from a re-analysis of the deposited data

Results flagged for a closer look

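In each group of 4 to 10 cells of 1 plate and size class, the cell farthest from its nearest neighbour was looked for over 19 measures. Of 57 groups 11 held a cell that stood apart. The limit used gives about 1 in 20 for independent, normally distributed values. The measures here come from the same cells, and the groups mix cell types, so 11 is not read as an excess. The large class of plate 2, with 14 cells, was not examined in this way.

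Among large cells of plate 1, 1 cell of cluster 2 had 5301885 total counts against 2467455 in the next. In the same group 1 cell had a CD51 stain of 1074 (next 516), and 1 had a CD45 stain of 392, the lowest (next 969). Among small cells of plate 1, 1 cell had a mitochondrial share of 3.93% (next 1.72%). Another, of cluster 2, had 45.0% of its counts in the 20 most abundant genes (next 20.4%). One of the 2 small cluster 6 cells had a CD51 stain of 1312 (next 609). The remaining values came from small cells of plate 2. They were a side scatter area of 64827 (next 46234), a CD61 stain of 2792 (next 2073) in the small cell closest to the size cut, and a CD51 stain of 1848 (next 475). A VCAM1 stain of 2385 (next 914) and a DNA dye value of 124627 (next 89427) came from 2 further cells of that class. No cell carried more than 1 of the values listed for plate 2.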

How the results depend on the processing

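No paired analysis was possible because the result comes from no test. Of 92 alternative values other than those leaving out 1 cell, 64 kept their direction within a set limit, 19 moved past it and 9 turned round. The cause was not tested. The limit was the standard deviation of the 2 plate values, or a fixed fold for the shares of genes past 2-fold. It was wide, at 1.05 for the osteolineage median of 0.49 and 0.66 for the CAR median of -0.31. Staying within it therefore does not show that a value is stable. The reported values were a difference of 628 in median genes detected, ratios of medians of 1.20 for total counts, 1.37 for CD200 and 1.01 for side scatter area, and a difference of 7.94 percentage points in the osteolineage-like share. That share counts clusters 2 and 5 together, although the CD61+ cells of cluster 5 were CAR-high. With the split at each plate's median size the total count ratio was 1.11, CD200 1.94 and side scatter 0.990. The osteolineage median then fell to 0.08 and the CAR median was -0.02, with -0.01 over all genes, so neither list shift remained. These 2 list medians were 0.77 and -0.78 without cells near the cut. They were 1.12 and -0.90 with the split on forward scatter height. Without cells near the cut the values were 1254 genes, 1.11 for total counts, 2.68 for CD200, 1.19 for side scatter and 23.8 points. With the split on forward scatter height they were 95 genes, 1.05 for total counts, 3.19 for CD200 and 28.6 points. Without wide cells total counts were at 1.31, CD200 at 0.949 and side scatter at 0.990. Without cells of high DNA dye total counts were at 1.30 and side scatter at 0.998. Within CAR-high cells the values were 1146 genes, 1.1 for total counts, an osteolineage median of -0.30, a CAR median of 0.28, 1.06 for CD200 and -27.4 points; without cluster 5 these list medians were -0.33 and 0.11. Without cluster 6 total counts were at 1.28 and CD200 at 2.13. Calling cells by an osteolineage mean above the CAR mean gave 30.2 points. Leaving out 1 cell at a time, the total count ratio ran from 1.12 to 1.30, the CD200 ratio from 1.05 to 1.97 and the side scatter ratio from 0.998 to 1.02; the genes difference ran from 440 to 816, the osteolineage median from 0.15 to 0.68 and the CAR median from -0.61 to -0.13. With TMM factors 1003 genes were past 2-fold higher and 880 lower, 53.3% of the calls being higher against 44.1% in the reported comparison; without wide cells the counts were 705 and 1320. With 39 cells from an unstated number of animals, differences in shares and medians have wide intervals.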
